A study of Mus musculus with 24 samples.

Results

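The 51 interferon response and immunoproteasome genes described here were chosen by name from the gene count table and compared over 6 groups of sorted mouse blood stem and progenitor cells. They are 51 of 24421 gene lines in the table, and all 51 passed the filter on low counts that left 14205 genes for testing. By role, 40 belong to the type I interferon response, 4 are interferon-gamma type GTPases and 7 process and load peptides for antigen presentation. Bulk RNA-seq libraries came from the marrow of male C57BL/6 mice, 4 aged (107 weeks) and 4 young (12 weeks), after enrichment for CD117+ cells. Each age gave 3 populations of Lin-Sca1+Kit+ cells. LT-HSC, the long-term stem cells, were sorted as CD150+CD48-. ST-HSC, the short-term stem cells, were CD150-CD48-, and MPP, the multipotent progenitors, were CD150-CD48+. The groups are therefore aged LT-HSC, aged ST-HSC, aged MPP, young LT-HSC, young ST-HSC and young MPP, with 4 libraries each and 24 in all. The labels name no transgene or drug for any group. No label ties a library number to a mouse, and libraries of one group are treated as separate mice on the ground that 4 mice are given per age. The p-values measure the spread between these libraries.

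Type I interferons signal through the receptor made of Ifnar1 and Ifnar2, and the kinases Jak1 and Tyk2 then activate a complex that contains Stat2 and Irf9. That complex binds the interferon-stimulated response element in the promoters of antiviral genes. Interferon-gamma acts through another receptor and a response sequence called GAS, and it is the classical inducer of the GTPases, the immunoproteasome and the peptide loading machinery. In the immunoproteasome Psmb8, Psmb9 and Psmb10 replace the constitutive catalytic subunits Psmb5, Psmb6 and Psmb7. Peptides then enter the endoplasmic reticulum through the Tap1 and Tap2 transporter and are loaded with the help of Tapbp onto MHC class I molecules, whose light chain is B2m. In blood stem cells interferon is known to push quiescent cells into division.

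The libraries held 7307151 to 12946550 counts (median 8652940). The transcript of CD150, Slamf1, averaged 72.1 ± 11.7 CPM in aged LT-HSC and 26.2 ± 3.85 CPM in young LT-HSC (SD, n = 4 each), and stayed under 2 CPM in every ST-HSC and MPP library. Cd48 was highest in MPP, at 90.2 ± 6.42 CPM in aged, against 66.5 ± 2.92 CPM in young cells. CPM relates each count to the library total after TMM scaling. Aged ST-HSC libraries 2 and 3 and library 1 of young LT-HSC had been set apart by an earlier look at these data, and each count of changed members was repeated without them. Granulocyte marker genes held 0.087% of counts in young LT-HSC library 1, the highest of that group.

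Most members were expressed in every population. Of the 51 members, 13 had a group mean of at least 100 CPM in all 6 groups, and 3 stayed under 5 CPM in all of them. Those 3 were Isg15, a ubiquitin-like modifier and a classical type I target, Ifit3, an antiviral tetratricopeptide protein, and Ifi204, a DNA sensor. Isg15 had 7 to 24 counts in aged LT-HSC libraries, 18 to 31 in aged ST-HSC and 9 to 20 in aged MPP. The young libraries had 5 to 36 in LT-HSC, 18 to 34 in ST-HSC and 12 to 27 in MPP. Ifi204 had no count in 8 of the 24 libraries. Reads of close paralogs, as in the Ifi200, Oas1, Ifit, Irgm, Trim30 and Mx families, could be split or dropped by the authors' counting, so values of Ifi203, Ifi204, Oas1a, Ifit1, Ifit3, Irgm1, Irgm2, Trim30a, Mx1 and Mx2 are uncertain to that extent.

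The arms were highest in different groups. All 7 antigen processing members had their highest group mean in aged MPP. Of the 40 type I members, 22 had their highest mean in young ST-HSC and 22 their lowest in aged MPP. Of the 4 GTPases, 3 were highest in aged LT-HSC and 3 lowest in aged MPP. These counts rank group means and carry no test. The mean log2 deviation of an arm (each member's log2 CPM minus its own mean over the 24 libraries, averaged over the arm) gave the same picture by library. For antigen processing it was 0.31, 0.47, 0.15 and 0.54 in aged MPP libraries 1 to 4, against -0.0009, -0.05, 0.08 and 0.09 in young MPP libraries. Every aged MPP library lay above every young one. For the type I arm it was 0.04, -0.37, -0.41 and -0.26 in aged MPP libraries and -0.18, -0.13, 0.11 and -0.31 in young MPP libraries, which overlap. It was 0.13, 0.25, -0.16 and -0.18 in aged ST-HSC libraries and 0.20, 0.17, 0.53 and 0.23 in young ST-HSC libraries, which also overlap. Within aged LT-HSC, libraries 1 and 2 stood at 0.18 and 0.17 and libraries 3 and 4 at -0.03 and -0.11, while the young LT-HSC libraries lay between 0.0068 and 0.07.

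**Figure D1:**
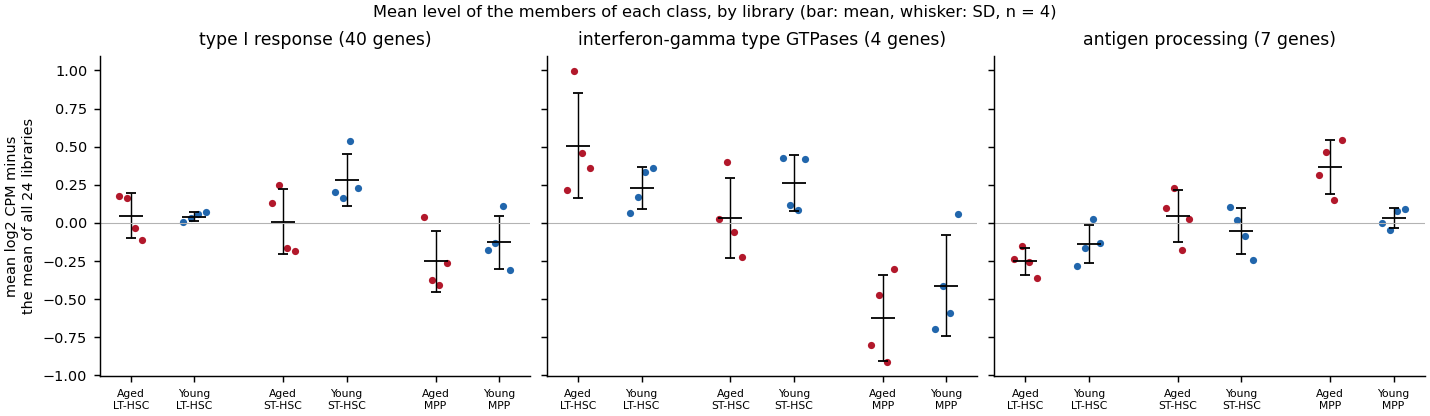
Mean log2 deviation of the type I response, GTPase and antigen processing members (y axis) in each of the 24 libraries, by group (x axis), with points for libraries and the mean and SD of 4 as bars and whiskers. The 4 aged MPP libraries have the highest antigen processing group mean, 0.37, and the lowest type I group mean, -0.25.

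Promoter letters were read for the members from RefSeq, build GRCm38.p6 (the mm10 assembly), in windows of 250 bases before to 50 bases from the transcription start. A window was found for 38 of the 51 members. The core of the interferon-stimulated response element, GAAANNGAAA or its reverse complement TTTCNNTTTC, was present in 18 of 38 member windows (47.4%), against 1079 of 27025 genes with a window (3.99%). It was present in 13 of 28 type I members, 4 of 4 GTPases and 1 of 6 antigen processing members, B2m. The GAS letters TTCNNNGAA, which read the same on both strands, were in 12 of 38 member windows (31.6%) and in 9.55% of all genes. They were in 9 of 28 type I members, 2 of 4 GTPases and only 1 of 6 antigen processing members, Psmb8. A match describes these letters only and is not a measured binding site. The 4 windows below belong to members that the age comparisons turn on, and capitals mark the matches. Ifih1 (chr2:62646206-62646505, minus strand, GAAACAGAAA from position 33) and Stat2 (chr10:128270248-128270547, plus strand, TTTCAGTTTC from position -222) stand for the type I arm. Psmb8 (chr17:34197945-34198244, plus strand, TTCCCAGAA from position -97) and B2m (chr2:122147437-122147736, plus strand, GAAACTGAAA from position -139) stand for antigen processing. Positions count the start base as 1 and the base before it as -1, and each window reads 5′ to 3′ on the gene's strand.
Ifih1: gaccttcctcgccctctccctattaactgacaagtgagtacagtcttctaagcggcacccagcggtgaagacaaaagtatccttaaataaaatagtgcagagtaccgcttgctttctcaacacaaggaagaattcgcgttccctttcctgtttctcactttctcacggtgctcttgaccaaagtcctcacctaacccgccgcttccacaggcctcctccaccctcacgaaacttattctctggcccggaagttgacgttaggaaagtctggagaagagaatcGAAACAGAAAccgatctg
Stat2: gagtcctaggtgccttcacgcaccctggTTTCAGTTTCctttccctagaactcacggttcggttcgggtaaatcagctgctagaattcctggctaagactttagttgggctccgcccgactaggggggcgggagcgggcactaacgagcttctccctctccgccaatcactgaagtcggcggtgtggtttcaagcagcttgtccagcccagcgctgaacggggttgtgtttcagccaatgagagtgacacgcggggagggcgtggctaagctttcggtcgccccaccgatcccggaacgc
Psmb8: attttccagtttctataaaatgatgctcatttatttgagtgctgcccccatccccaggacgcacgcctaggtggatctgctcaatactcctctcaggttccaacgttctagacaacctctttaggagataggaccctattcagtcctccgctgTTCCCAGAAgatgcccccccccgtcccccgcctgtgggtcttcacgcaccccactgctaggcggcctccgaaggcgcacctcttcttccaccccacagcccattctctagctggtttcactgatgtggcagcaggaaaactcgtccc
B2m: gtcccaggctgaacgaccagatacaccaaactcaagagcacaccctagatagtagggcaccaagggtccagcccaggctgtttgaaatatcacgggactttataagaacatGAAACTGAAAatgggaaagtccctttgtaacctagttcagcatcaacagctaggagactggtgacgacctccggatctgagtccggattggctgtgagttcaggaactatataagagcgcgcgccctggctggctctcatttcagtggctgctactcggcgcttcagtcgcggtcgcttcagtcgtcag

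In LT-HSC, 7 of 51 members (13.7%) passed an adjusted p of 0.05 between ages, where 18.9% of all tested genes did (9.98% higher and 8.87% lower), so the members were called at no higher a rate than genes in general. All 7 were type I members, 6 higher and 1 lower in aged cells. None of the 4 GTPases or 7 antigen processing members passed. The type I arm as a whole moved little. With any 1 library left out, its median change lay between 0.0078 and 0.091, where the median of all genes was 0.0022 in the main fit. The antigen processing median lay between -0.22 and -0.11. The clearest rises were in Ly6e, a lipid-anchored surface protein that limits entry of several viruses, Ifih1, the cytosolic sensor of long double-stranded RNA called MDA5, and the nuclear body proteins Sp140 and Sp100. In bulk samples, a change in the mix of cells and a change in RNA per cell cannot be told apart, here and in every comparison below.

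Ifih1 was at 92.9, 102, 102 and 101 CPM in aged LT-HSC libraries 1 to 4, against 60.6, 63.0, 70.0 and 69.1 CPM in young ones. The aged values lay close together and above all young values, and the log2 change was 0.60 ± 0.12 (SE; edgeR quasi-likelihood test, Benjamini-Hochberg adjusted p = 0.000662). Ly6e was at 471, 480, 374 and 435 CPM in aged LT-HSC and 279, 298, 297 and 278 CPM in young LT-HSC. Its groups did not overlap and its log2 change was 0.61 ± 0.11 (adjusted p = 0.000352). Sp140, a chromatin reader that restrains type I interferon in macrophages, was at 29.8, 29.0, 28.2 and 19.9 CPM in aged LT-HSC and 16.5, 12.4, 12.2 and 13.9 CPM in young LT-HSC. Aged library 4 was the lowest of its group and still above every young library, with a log2 change of 0.96 ± 0.20 (adjusted p = 0.0012). Sp100, a component of PML nuclear bodies, was at 63.3, 63.5, 73.3 and 61.7 CPM in the aged libraries, against 44.7, 43.0, 53.9 and 45.4 CPM in young LT-HSC, without overlap. It rose by 0.48 ± 0.11 on the log2 scale (adjusted p = 0.00334).

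The other LT-HSC calls depended more on single libraries. Rtp4, an antiviral chaperone of receptor transport, was at 95.7, 87.5, 64.8 and 49.5 CPM in aged LT-HSC and 23.5, 33.6, 40.6 and 32.2 CPM in young LT-HSC. The aged values spread nearly as far among themselves as they stood above the young ones, and the log2 change was 1.20 ± 0.35 (adjusted p = 0.0213). Dtx3l, the ubiquitin ligase partner of Parp9, was at 248.5, 298, 253 and 262 CPM in the aged libraries, against 248.0, 195, 213 and 205 CPM in young LT-HSC, and rose by 0.30 ± 0.08 on the log2 scale (adjusted p = 0.0104). Young library 1 lay just under the lowest aged library. Oas2, a synthetase of the 2-5A messenger that switches on RNase L, was the member that fell, at 17.9, 35.2, 9.44 and 6.83 CPM in the aged libraries, against 54.8, 38.1, 52.8 and 26.3 CPM in young LT-HSC, which overlap (log2 change -1.29 ± 0.44, adjusted p = 0.0462). Of the 7 calls, Ly6e, Ifih1, Sp140 and Sp100 held with any 1 library left out, while Dtx3l was lost without aged library 2 (adjusted p = 0.0545) and Rtp4 without aged library 1 or 2 or young library 1 or 4 (adjusted p 0.0507 to 0.0643). Oas2 was lost without aged library 1, 3 or 4 or young library 1, 2 or 3 (adjusted p 0.0662 to 0.129), had a log2 change of -1.91 without aged library 2, and was lost without a count filter and in a fit to only the LT-HSC groups (adjusted p = 0.0613 and 0.157). Without the 3 libraries set apart, Rtp4 and Oas2 did not pass (adjusted p = 0.0611 and 0.111). T and NK cell markers held 0.00811% to 0.0124% of counts in aged LT-HSC libraries and 0.00233% to 0.00303% in young ones, with 1 of 3 tested markers higher. Klrb1c alone made up 87.7% of that list in aged LT-HSC. Cd3e, Cd3g and Ncr1 were at 0 in both groups, and Cd8a was at 0 in aged LT-HSC. The part of these markers in these results was not tested.

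**Figure D2:**
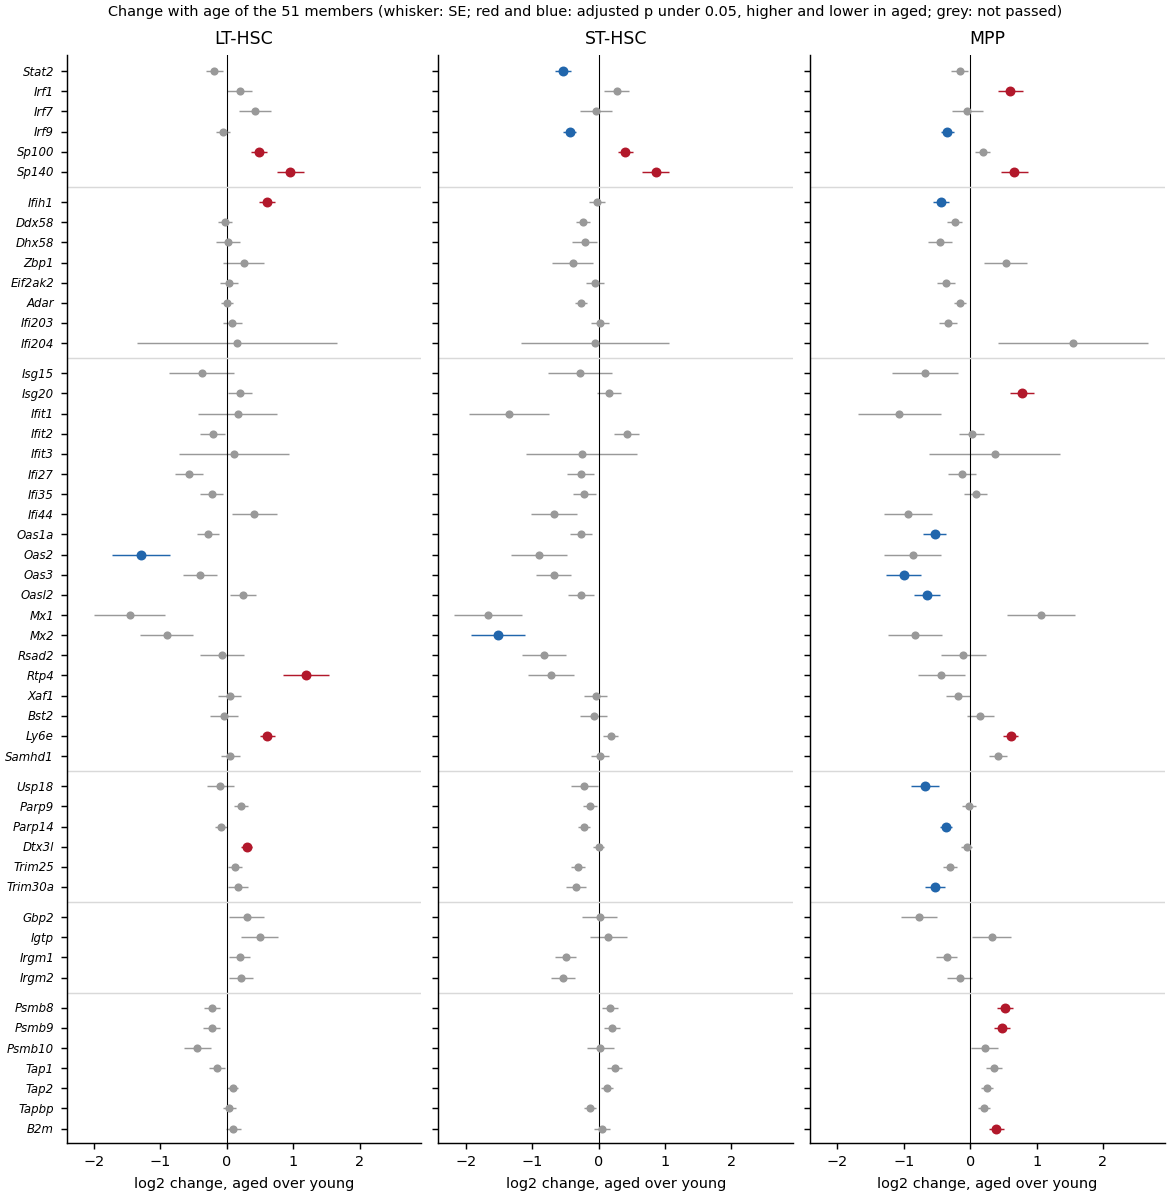
Log2 change, aged minus young (x axis, whiskers are SE), of each of the 51 members (rows, grouped by role) in LT-HSC, ST-HSC and MPP, with red and blue points for members higher and lower in aged cells at an adjusted p under 0.05 and grey points for the rest. Called type I members lie mostly to the right of 0 in LT-HSC (6 of 7) and mostly to the left in MPP (8 of 12), and all 7 antigen processing members lie to the right of 0 in MPP.

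In ST-HSC, 5 of 51 members (9.80%) passed, against 5.79% of all tested genes (3.58% higher and 2.21% lower). Sp140 and Sp100 rose, while Mx2 fell, as did Stat2 and Irf9, both parts of the type I signalling complex. Of the 40 type I members, 31 had a negative change and 9 a positive one, with a median of -0.22 where the median of all genes was 0.0098. Antigen processing members had a median of 0.12, and none passed.

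Stat2, the DNA-bound activator subunit of that complex, was at 59.7, 69.0, 47.2 and 52.4 CPM in aged ST-HSC and 93.3, 72.5, 89.7 and 75.1 CPM in young ST-HSC. No aged library reached the lowest young one, and the log2 change was -0.53 ± 0.12 (adjusted p = 0.00971). Irf9, its DNA-binding subunit, was at 86.5, 86.2, 81.2 and 82.7 CPM in aged ST-HSC and 100, 132, 108 and 116 CPM in young ST-HSC, again without overlap (log2 change -0.43 ± 0.10, adjusted p = 0.0112). Mx2 was low in both groups, at 5.16, 3.11, 1.33 and 3.05 CPM in the aged libraries, against 4.88, 13.5, 10.9 and 7.35 CPM in young ST-HSC, which overlap (log2 change -1.51 ± 0.41, adjusted p = 0.0266). Sp140 was at 27.2, 23.3, 28.7 and 28.1 CPM in aged ST-HSC and 16.1, 17.0, 9.66 and 16.3 CPM in young ST-HSC. Every aged value exceeded every young one (log2 change 0.86 ± 0.20, adjusted p = 0.0101). Sp100 was at 55.9, 75.5, 78.8 and 58.0 CPM in the aged libraries, against 49.9, 45.2, 54.3 and 53.2 CPM in young ST-HSC (log2 change 0.40 ± 0.11, adjusted p = 0.0343). The groups did not overlap, and its 2 highest values were those of aged libraries 2 and 3, both among the libraries set apart.

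Of the 5 calls, Stat2 held under all 17 alternatives run. Irf9 was lost without young library 2 (adjusted p = 0.0569), Sp140 without young library 3 (0.0506), Mx2 without aged library 2, 3 or 4 or young library 2 or 3 (0.0572 to 0.101) and Sp100 without aged library 2 or 3 or young library 1, 2 or 3 (0.0511 to 0.125). Without the 3 libraries set apart, Irf9, Mx2 and Sp100 did not pass (0.0777 to 0.465), and Sp100 also failed with limma-voom (0.0554) and in a fit to only the ST-HSC groups (0.116). The count fell to 2 without young library 3 and to 3 without aged library 2, aged library 3 or young library 2. Granulocyte markers held 0.0114% to 0.275% of counts in aged ST-HSC libraries and 0.00564% to 0.0323% in young ones, with 2 of 7 tested markers higher in aged cells and none lower. Monocyte and macrophage markers held 0.00825% to 0.0278% in aged and 0.000664% to 0.00217% in young ST-HSC, with 2 of 9 higher. Mpo made up 66.7% of the granulocyte list in aged ST-HSC and 53.8% in young ST-HSC. The part of both lists in these results was not tested.

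**Figure D3:**
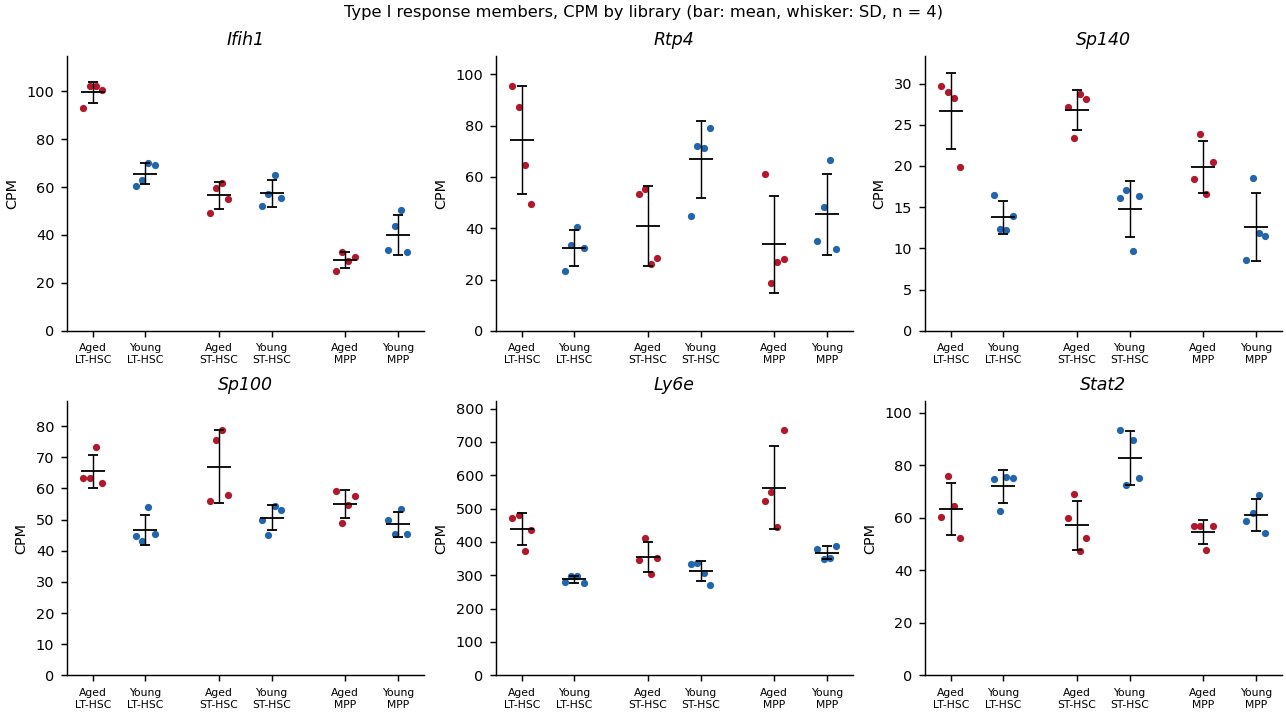
CPM (y axis) of type I response members in each library, by group (x axis), with points for libraries and the mean and SD of 4 as bars and whiskers. The 4 aged LT-HSC libraries of Ifih1 sit between 92.9 and 102 CPM, above the other 20 libraries.

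In MPP, 15 of 51 members (29.4%) passed, against 9.79% of all tested genes (5.53% higher and 4.27% lower), and the arms had medians of opposite sign. Among antigen processing members, Psmb8, Psmb9 and B2m rose, and all 7 had positive changes between 0.21 and 0.52. Among type I members, 8 fell (Irf9, Ifih1, Oas1a, Oas3, Oasl2, Usp18, Parp14 and Trim30a) and 4 rose (Irf1, Sp140, Isg20 and Ly6e), and 27 of 40 changes were negative. The median change was 0.35 for antigen processing and -0.17 for the type I arm, where the median of all genes was -0.0041. None of the 4 GTPases passed.

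Psmb8, the immunoproteasome subunit LMP7, was at 180, 185, 137 and 192 CPM in aged MPP libraries and 113, 115, 126 and 129 CPM in young ones. Its lowest aged library, number 3, was still above all young libraries, and the log2 change was 0.52 ± 0.12 (adjusted p = 0.00487). Psmb9, the subunit LMP2, was at 121, 157, 119 and 141 CPM in aged MPP and 93.6, 75.4, 109 and 108 CPM in young MPP, without overlap (log2 change 0.48 ± 0.12, adjusted p = 0.0121). B2m was at 1081, 1321, 974 and 1681 CPM in aged MPP and 968, 1073, 921 and 883 CPM in young MPP. Aged library 4 was by far the highest and aged library 3 lay within the young range, with a log2 change of 0.40 ± 0.12 (adjusted p = 0.0303). Of the members that did not pass, Tap1 was at 327, 397, 306 and 297 CPM in aged MPP and 252, 249, 257 and 280 CPM in young MPP. Tap2 was at 274, 271, 270 and 308 CPM in aged MPP and 240, 227, 222 and 255 CPM in young MPP. Neither gene's groups overlapped, although their adjusted p-values of 0.058 and 0.0699 were above the threshold. Tapbp, at 194 to 279 CPM in aged and 202 to 221 CPM in young MPP, and Psmb10, at 36.4 to 54.7 CPM in aged and 33.1 to 42.0 CPM in young MPP, overlapped. Exons of Psmb9 and Tap1 overlap by 212 bases, 5.80% of the Psmb9 exons and 3.90% of the Tap1 exons, and reads there cannot be told apart by strand.

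B and plasma cell markers were also higher in aged than in young MPP. The 8 markers in the table held 0.231%, 0.336%, 0.186% and 0.875% of counts in aged MPP libraries 1 to 4, against 0.00581%, 0.00791%, 0.0105% and 0.0359% in young ones. Jchain, the joining chain of secreted antibodies, made up 95.4% of that sum in aged MPP, and 5 of the 8 markers rose while none fell. None of the 8 was at 0 in either MPP group. The aged libraries stand in the same order by this share as by the mean antigen processing level, with library 3 lowest and library 4 highest. Psmb8, Psmb10 and B2m each followed that order, while Psmb9, Tap1, Tap2 and Tapbp did not, and Tap1 was lowest in library 4. In young MPP the orders differed, with library 1 lowest by share and library 2 lowest by level. Dendritic cell markers, a list that includes the member Bst2, held 0.0755% to 0.0881% in aged and 0.0731% to 0.0786% in young MPP, with 3 of 6 higher. Monocyte and macrophage markers held 0.0164% to 0.0394% in aged and 0.00234% to 0.0153% in young MPP, with 2 of 9 higher. Flt3 made up 56.5% of the dendritic list in aged MPP and 63.3% in young MPP. The part of these marker genes, or of any cells they mark, in the antigen processing values was not tested.

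**Figure D4:**
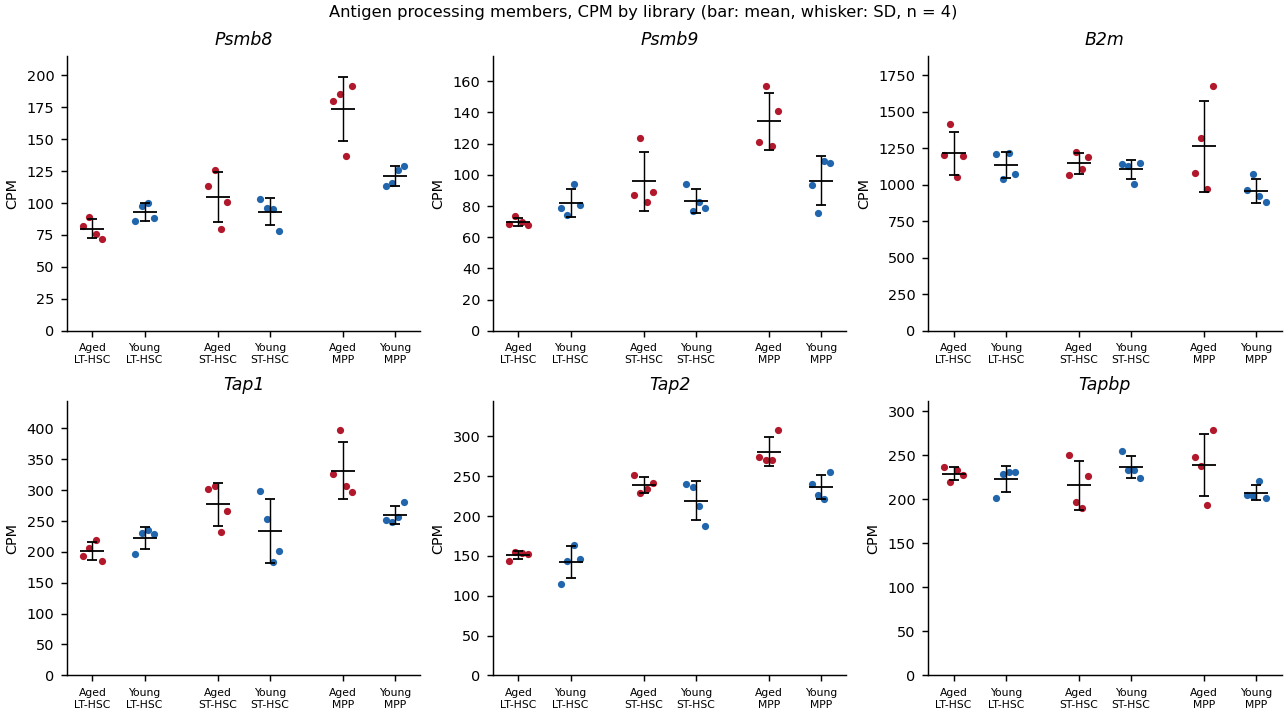
CPM (y axis) of 6 antigen processing members in each library, by group (x axis), with points for libraries and the mean and SD of 4 as bars and whiskers. In aged MPP Psmb8 lies between 137 and 192 CPM, above all 4 young MPP libraries, while B2m overlaps between ages.

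The type I members that fell in aged MPP came from several roles. Parp14, an ADP-ribosyl transferase, was at 113, 87.6, 96.0 and 102 CPM in aged MPP and 130, 138, 129 and 119 CPM in young MPP. No aged library reached the young range (log2 change -0.37 ± 0.09, adjusted p = 0.01). Oas3, the synthetase that makes 2-5A at the lowest levels of double-stranded RNA, was at 52.3, 31.7, 41.3 and 36.0 CPM in aged MPP and 57.9, 141, 72.8 and 51.6 CPM in young MPP. Aged library 1 was just above the lowest young library, the young values were led by library 2, and the log2 change of -1.0 ± 0.26 (adjusted p = 0.0174) became -0.59 without it (adjusted p = 0.0793). Ifih1 was at 25.1, 33.0, 29.2 and 30.9 CPM in aged MPP and 33.5, 43.7, 50.3 and 32.8 CPM in young MPP, overlapping in a single pair of libraries (log2 change -0.44 ± 0.12, adjusted p = 0.0211). Usp18, the protease that removes ISG15 and blocks the receptor, was at 13.6, 11.6, 10.3 and 17.0 CPM in aged MPP and 15.4, 28.4, 24.2 and 16.3 CPM in young MPP, with overlap (log2 change -0.68 ± 0.21, adjusted p = 0.0354).

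Oasl2, an OAS-like protein, was at 60.0, 34.8, 30.9 and 34.3 CPM in aged MPP and 57.0, 72.5, 71.9 and 48.9 CPM in young MPP. Aged library 1 stood with the young libraries and the other 3 below all of them (log2 change -0.65 ± 0.20, adjusted p = 0.0378). Oas1a showed the same arrangement, at 31.2, 15.8, 20.2 and 20.6 CPM in aged MPP and 30.4, 33.7, 30.9 and 32.2 CPM in young MPP (log2 change -0.53 ± 0.17, adjusted p = 0.0478). Trim30a, a regulator of innate signalling, was at 131, 95.5, 118 and 106 CPM in aged MPP and 148, 229, 146 and 131 CPM in young MPP, where young library 2 was far above the rest and the groups met at 131 CPM (log2 change -0.53 ± 0.15, adjusted p = 0.0269). Irf9 was at 79.8, 73.4, 64.2 and 57.7 CPM in aged MPP and 77.8, 95.8, 89.5 and 86.2 CPM in young MPP (log2 change -0.34 ± 0.10, adjusted p = 0.0314). Its aged library 1 overlapped the lowest young one.

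Of the 4 type I members that rose in aged MPP, Ly6e was at 522, 551, 444 and 736 CPM in aged MPP and 380, 349, 353 and 389 CPM in young MPP. The groups did not overlap and the log2 change was 0.61 ± 0.11 (adjusted p = 0.000812). Of these 4 members, only Ly6e followed the order of the aged MPP libraries by B and plasma cell marker share. Its young libraries did not follow the order of the young shares. The part of those markers in the Ly6e values was not tested. Isg20, an exonuclease that degrades viral RNA, was at 24.0, 38.1, 27.0 and 30.9 CPM in aged MPP and 20.3, 17.4, 16.4 and 15.9 CPM in young MPP, again without overlap (log2 change 0.78 ± 0.18, adjusted p = 0.00606). Sp140 was at 18.4, 23.9, 16.6 and 20.5 CPM in aged MPP and 8.61, 18.5, 11.8 and 11.5 CPM in young MPP (log2 change 0.66 ± 0.20, adjusted p = 0.0368). It was the only member called in all 3 populations, and its young library 2 reached the aged range here. Irf1, a transcription factor strongly induced by interferon-gamma, was at 199, 332, 200 and 214 CPM in aged MPP and 165, 180, 116 and 162 CPM in young MPP (log2 change 0.60 ± 0.19, adjusted p = 0.0432). Aged library 2 was far above the rest of its group, and without it the log2 change was 0.40 and the call was lost.

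Ly6e, Psmb8, Isg20 and Parp14 held with any 1 library left out and under every other alternative, and no called member changed sign in any. A fit to only the MPP groups lost B2m, Ifih1, Irf1, Irf9, Oas1a, Oas3, Oasl2, Sp140, Trim30a and Usp18 (adjusted p 0.0773 to 0.155), and Irf1, Oas1a, Oasl2 and Usp18 each also failed in some of the other alternatives (0.0507 to 0.0667). Calls were lost without aged library 2 (Psmb9, B2m, Oas3, Trim30a, Usp18, Sp140, Oasl2, Irf1 and Oas1a) and without aged library 4 (B2m, Oas3, Trim30a, Irf9, Sp140, Oasl2, Irf1 and Oas1a). Calls were also lost without aged library 1 (Ifih1 and Usp18) and aged library 3 (Irf9, Usp18, Oasl2 and Oas1a). On the young side, leaving out library 2 ended the calls of Psmb9, Oas3, Ifih1, Trim30a, Irf9, Usp18, Oasl2 and Oas1a, and leaving out library 3 those of B2m, Ifih1, Irf9, Usp18, Sp140, Oasl2, Irf1 and Oas1a. Leaving out young library 1 ended B2m, Sp140, Oasl2, Irf1 and Oas1a, and young library 4 B2m, Irf9, Sp140, Irf1 and Oas1a. The adjusted p of a lost call ran from 0.0508 to 0.185. B2m was at a log2 change of 0.23 without aged library 4 (adjusted p = 0.179). The count of 15 fell to 6 without aged library 2, to 7 without young library 2, and to 8 without aged library 4 or young library 3.

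Members that passed in no age comparison numbered 30 of 51, a count for which no matching share of all genes was taken. Irf7, the main amplifier of the type I response, was at 18.1 to 28.4 CPM in aged LT-HSC, 15.5 to 35.8 CPM in aged ST-HSC and 16.3 to 33.8 CPM in aged MPP. In the young groups it was at 14.8 to 19.2 CPM in LT-HSC, 21.0 to 31.6 CPM in ST-HSC and 20.6 to 32.5 CPM in MPP. Adar, the double-stranded RNA deaminase, lay between 207 and 307 CPM in all 24 libraries, with 16.8% of its exon length shared with Chrnb2 on the opposite strand. Samhd1, a phosphohydrolase that depletes nucleotides, was at 117 to 216 CPM in aged MPP and 105 to 126 CPM in young MPP, where aged library 4 stood highest.

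The age effects of the populations were then compared directly. Between LT-HSC and MPP, 7 members differed (13.7%, against 9.93% of all genes, 5.05% higher and 4.89% lower). Ifih1 had the smallest adjusted p, rising in aged LT-HSC and falling in aged MPP, a difference of 1.04 ± 0.17 on the log2 scale (adjusted p = 0.000208). Psmb8 and Psmb9 differed the other way, by -0.74 ± 0.17 (adjusted p = 0.005) and -0.71 ± 0.18 (adjusted p = 0.0101). In LT-HSC itself Psmb8 was at 82.3, 88.8, 75.6 and 72.1 CPM in aged cells and 85.7, 97.6, 100 and 88.1 CPM in young cells, and did not pass. Psmb9 was at 68.4, 73.8, 69.8 and 67.6 CPM in the aged libraries, against 78.5, 74.2, 94.4 and 80.6 CPM in young LT-HSC, and did not pass either. These 3 differences held with any library left out.

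Mx1, an antiviral GTPase that is defective in C57BL/6 mice, was low throughout, at 3.99, 1.22, 0.893 and 2.44 CPM in aged LT-HSC, 5.34, 7.28, 5.84 and 5.17 in young LT-HSC, 15.9, 4.98, 8.05 and 7.65 in aged MPP and 4.25, 2.11, 6.09 and 4.94 in young MPP. Aged values were lower than young in LT-HSC and mostly higher in MPP, and the difference of age effects was -2.53 ± 0.74 (adjusted p = 0.0298). Trim30a (0.71 ± 0.22, adjusted p = 0.0381), Rtp4 (1.63 ± 0.49, 0.0416) and Oasl2 (0.89 ± 0.28, 0.0424) made up the rest. Single left-out libraries ended those 4 calls, 5 libraries for Mx1 (adjusted p up to 0.0674), 10 for Trim30a (0.096), 11 for Rtp4 (0.0905) and 11 for Oasl2 (0.106), among them aged LT-HSC library 2 and young MPP library 2 in each case. The count of 7 was 3 without aged LT-HSC library 2, young LT-HSC library 2 or young MPP library 2, and 4 without aged MPP library 2 or 3 or young LT-HSC library 4. Each of the 4 also failed in at least 1 other alternative (adjusted p 0.0528 to 0.0869). Between LT-HSC and ST-HSC, 2 members differed, where 4.05% of all genes did (1.65% higher and 2.39% lower), Ifih1 by 0.63 ± 0.17 (adjusted p = 0.0339) and Rtp4 by 1.90 ± 0.49 (adjusted p = 0.0346). Ifih1 was lost without any 1 of 8 libraries and Rtp4 without any 1 of 9, and neither passed without aged LT-HSC library 2, aged ST-HSC library 4, young LT-HSC library 1 or 2, or young ST-HSC library 2 or 3 (adjusted p up to 0.0804). Between ST-HSC and MPP no member passed by edgeR, against 0.465% of all genes (0.183% higher and 0.282% lower). By unadjusted p, 9 members were under 0.05, with no matching share of all genes taken, and DESeq2 called 1.

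Members were also compared between populations within each age. In aged cells, LT-HSC against MPP gave 26 calls among 51 members (51%, against 56.8% of all genes, 28.3% higher and 28.5% lower). Type I members were 13 higher and 4 lower in LT-HSC, all 4 GTPases were higher, and antigen processing members were 5 lower and none higher. Medians were 0.31, 1.26 and -0.72 for the type I, GTPase and antigen processing members, against 0.02 for all genes. Ifih1 averaged 99.5 ± 4.5 CPM in aged LT-HSC and 29.5 ± 3.35 CPM in aged MPP (log2 difference 1.75 ± 0.12, adjusted p = 3.71e-12). Irgm2, a GTPase that guards vacuoles of intracellular microbes, averaged 90.9 ± 18.1 CPM in aged LT-HSC and 32.3 ± 10.6 CPM in aged MPP (1.49 ± 0.19, adjusted p = 2.69e-07). Tap2 averaged 151 ± 5.46 CPM in aged LT-HSC and 281 ± 18.2 CPM in aged MPP (-0.90 ± 0.09, adjusted p = 2.7e-09), and Psmb8 averaged 79.7 ± 7.41 CPM in aged LT-HSC and 173.5 ± 24.9 CPM in aged MPP (-1.12 ± 0.12, adjusted p = 9.83e-09). Genes on several marker lists were also lower in aged LT-HSC. Those passing were 8 of 8 tested B and plasma cell markers, 7 of 9 monocyte and macrophage markers, 5 of 6 dendritic cell markers and 4 of 7 granulocyte markers. Single genes led some lists. Flt3 made up 56.5% of the dendritic list in aged MPP and 63.3% in young MPP, and Mpo 89.2% and 92.4% of the granulocyte list. The B and plasma cell markers held 0.00225% to 0.00351% of counts in aged LT-HSC and 0.186% to 0.875% in aged MPP, with Ms4a1 and Pax5 at 0 in aged LT-HSC. In aged ST-HSC against aged MPP, 8 of 8 B and plasma cell markers and 5 of 6 dendritic cell markers were lower, and in aged LT-HSC against aged ST-HSC 7 of 7 granulocyte markers and 5 of 9 monocyte and macrophage markers were lower. The part of these genes, or of any cells they mark, in the population differences was not tested. In young cells the same comparison gave 11 calls (21.6%, against 37.2% of all genes, 18.9% higher and 18.3% lower), with type I members 5 higher and 2 lower, GTPases 2 higher and antigen processing 2 lower. Tap2 was again lower in LT-HSC, at 142 ± 20.3 CPM against 236 ± 15.0 CPM in young MPP (-0.73 ± 0.09, adjusted p = 2.53e-07).

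Aged LT-HSC against aged ST-HSC gave 10 calls (19.6%, against 32.3% of all genes, 16.2% higher and 16.1% lower). Antigen processing members were 4 lower, with a median of -0.40, and type I members 4 higher and 1 lower. Ifi27, a mitochondrial interferon-induced protein, averaged 36.9 ± 5.95 CPM in aged LT-HSC and 70.4 ± 26.8 CPM in aged ST-HSC (-0.93 ± 0.21, adjusted p = 0.00144). Ifi44, a GTP-binding antiviral protein, averaged 65.7 ± 18.3 CPM in aged LT-HSC and 28.2 ± 7.94 CPM in aged ST-HSC (1.22 ± 0.34, adjusted p = 0.00956). Young LT-HSC against young ST-HSC gave 4 calls (7.84%, against 12.5% of all genes, 6.79% higher and 5.74% lower), of which Tap2 (-0.63 ± 0.09, adjusted p = 9.6e-06) and Ddx58, the RNA sensor RIG-I (-0.47 ± 0.11, adjusted p = 0.00311), were lower in LT-HSC. Ifit2, an antiviral protein that binds RNA, was higher, at 17.6 ± 2.66 CPM in young LT-HSC and 10.8 ± 2.33 CPM in young ST-HSC, without overlap (0.70 ± 0.19, adjusted p = 0.0117). Ifi27 was lower (-0.62 ± 0.21, adjusted p = 0.0494), and 33 of 40 type I members had a negative difference. Without young ST-HSC library 2 the young count was 2.

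Aged ST-HSC against aged MPP gave 16 calls (31.4%, against 29.9% of all genes, 15.5% higher and 14.4% lower), with type I members 10 higher and 1 lower, GTPases 2 higher and antigen processing 3 lower. Young ST-HSC against young MPP gave 14 (27.5%, against 20.6% of all genes, 10.5% higher and 10.1% lower), with type I members 11 higher and none lower, GTPases 2 higher and antigen processing 1 lower. Ddx58 averaged 167 ± 21.7 CPM in aged ST-HSC and 105 ± 12.5 CPM in aged MPP (0.66 ± 0.11, adjusted p = 4.43e-05). In young cells it averaged 195 ± 27.0 CPM in ST-HSC and 124 ± 6.00 CPM in MPP (0.66 ± 0.11, adjusted p = 9.33e-05). Parp14 averaged 143 ± 13.5 CPM in aged ST-HSC and 99.8 ± 10.9 CPM in aged MPP (0.52 ± 0.09, adjusted p = 0.000115), and Ly6e was lower in ST-HSC, at 354 ± 45.0 CPM in aged ST-HSC and 563 ± 124 CPM in aged MPP (-0.67 ± 0.11, adjusted p = 6.69e-05). Without the 3 libraries set apart the aged count was 10.

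The immunoproteasome subunits were set beside the constitutive subunits they replace, on a scale of counts per kilobase of exon. Psmb8 made up 69.8 ± 2.54% of the sum of Psmb8 and Psmb5 in aged MPP and 61.9 ± 0.793% in young MPP (SD, n = 4 each). The aged libraries ran from 67.5% to 72.1% and the young ones from 61.0% to 62.9%. Psmb9 made up 51.5 ± 3.40% of the sum with Psmb6 in aged MPP and 43.9 ± 3.45% in young MPP, and Psmb10 made up 60.6 ± 2.70% of the sum with Psmb7 in aged MPP and 61.1 ± 3.44% in young MPP. In LT-HSC the Psmb8 share was 72.1 ± 5.51% in aged and 65.8 ± 3.14% in young cells, although Psmb8 itself did not pass there. The constitutive genes fell instead, Psmb5 by 0.66 on the log2 scale (adjusted p = 0.013) and Psmb6 by 0.42 (adjusted p = 0.00484). In ST-HSC the Psmb8 share was 67.3 ± 5.70% in aged and 68.7 ± 5.49% in young cells. Lengths joined all annotated exons of a gene (3381 bases for Psmb8, 3660 for Psmb9 and 1705 for Psmb10). The level of a share therefore depends on the annotation and gives neither subunit composition nor a comparison between pairs. These shares are given as a description with no test.

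Upstream of the members, transcripts of interferons were near the detection limit. Of 9 ligand genes looked for, Ifnk had 196 counts over all 24 libraries and Ifnb1 22 counts in 5 libraries, Ifng 7 counts in 2, Ifna1 2 counts in 1 and Ifnl2 1 count in 1. The other 4 had no count, which allows up to 3 counts over the 24 libraries. Receptor transcripts were present in every group. Ifnar1 averaged 178 ± 20.4 CPM in aged LT-HSC, 200 ± 30.3 in aged ST-HSC, and 180.5 ± 19.3 in aged MPP. Its young means were 180 ± 11.5 CPM in LT-HSC, 204 ± 18.1 in ST-HSC and 189 ± 12.93 in MPP. Ifnar2 averaged 51.5 ± 9.74, 103 ± 8.80 and 125 ± 3.49 CPM in aged LT-HSC, ST-HSC and MPP, and 55.3 ± 4.96, 99.0 ± 8.13 and 121 ± 3.43 CPM in the young groups. Jak1, a kinase of both receptors, rose in LT-HSC, at 387.5 ± 22.5 CPM in aged, against 325 ± 14.9 CPM in young cells (0.25 ± 0.07, adjusted p = 0.00759).

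Of 7 inhibitors of cytokine signalling, Socs3, a feedback inhibitor of the Jak kinases, rose in all 3 populations. It averaged 112.5 ± 16.7 CPM in aged, against 7.75 ± 1.49 CPM in young LT-HSC (3.86 ± 0.33, adjusted p = 4.45e-08), 55.6 ± 26.2 CPM in aged, against 8.15 ± 1.57 CPM in young ST-HSC (2.77 ± 0.32, adjusted p = 2.13e-05), and 60.2 ± 12.1 CPM in aged, against 10.3 ± 4.80 CPM in young MPP (2.56 ± 0.32, adjusted p = 2.13e-05). Cish, another member of that family, fell in ST-HSC, at 21.6 ± 5.21 CPM in aged, against 58.0 ± 8.93 CPM in young cells (-1.43 ± 0.28, adjusted p = 0.00394). Of 16 sensing genes, 1 rose and 3 fell in LT-HSC (25%, against 18.9% of all genes), 1 rose in ST-HSC (6.25%, against 5.79%) and 3 rose in MPP (18.8%, against 9.79%). The MPP rises included Irf8, which directs monocyte and dendritic development, at 188 ± 32.7 CPM in aged, against 56.1 ± 27.0 CPM in young cells (1.74 ± 0.31, adjusted p = 0.000968), and Tlr9, the sensor of unmethylated DNA, at 14.6 ± 3.96 CPM in aged, against 3.18 ± 0.940 CPM in young cells (2.20 ± 0.50, adjusted p = 0.00501).

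Other interferon-induced genes, outside the members, numbered 57 on the list, of which 51 were tested. In LT-HSC 8 rose and 2 fell (19.6%, against 18.9% of all genes), with 24 positive and 26 negative changes. In ST-HSC 2 rose and 2 fell (7.84%, against 5.79%), and in MPP 5 rose and 7 fell (23.5%, against 9.79%). The LT-HSC and ST-HSC shares were thus near those of all genes. Among the 5 rises in MPP were Ifi205 and Ifi30. The aged MPP mean of Ifi205 was 5.5 ± 2.16 CPM, where its young MPP mean was 0 (8.66 ± 1.19, adjusted p = 0.00083). Ifi30 had an aged MPP mean of 19.3 ± 9.48 CPM, above its young MPP mean of 5.47 ± 0.709 CPM (1.82 ± 0.44, adjusted p = 0.00895). Uba7, the enzyme that activates ISG15, averaged 1415 ± 80.3 CPM in aged, against 798 ± 60.6 CPM in young LT-HSC (0.83 ± 0.08, adjusted p = 2.05e-08), where Isg15 itself had at most 36 counts in a library. Oas1b fell in ST-HSC, at 17.8 ± 5.38 CPM in aged, against 32.4 ± 5.54 CPM in young cells (-0.87 ± 0.19, adjusted p = 0.00558). In MPP it was at 9.77 ± 2.42 CPM in aged, against 21.8 ± 1.83 CPM in young cells (-1.16 ± 0.19, adjusted p = 0.000239). Parp12, an antiviral ADP-ribosyl transferase, fell in MPP, at 29.4 ± 6.84 CPM in aged, against 46.9 ± 7.95 CPM in young cells (-0.67 ± 0.13, adjusted p = 0.00115). Of 14 tested genes of MHC class I presentation out of 17 listed, 3 rose and 1 fell in LT-HSC (28.6%, against 18.9% of all genes), 2 rose in ST-HSC (14.3%, against 5.79%) and 6 rose in MPP (42.9%, against 9.79%), none falling in ST-HSC or MPP. H2-T23, a non-classical class I gene, rose in all 3, by 0.44 ± 0.09 in LT-HSC (adjusted p = 0.00112), 0.31 ± 0.09 in ST-HSC (0.0423) and 0.44 ± 0.09 in MPP (0.00288). H2-D1, a classical class I heavy chain, averaged 702 ± 96.5 CPM in aged, against 484 ± 63.1 CPM in young LT-HSC (0.54 ± 0.11, adjusted p = 0.00106).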

How the data were processed

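Bulk RNA-seq libraries of LT-HSC, ST-HSC and MPP from aged and young mice were analysed from one deposited table of raw read counts per gene symbol, whole numbers that sum to a different total in each library, so not normalized by the authors. Per the labels' protocols, first strands were made with not-so-random primers and libraries with Nextera XT, a chemistry that marks neither strand nor molecules, so the limit that a count of 0 allows covers counting error only, while SDs and SEs come from the spread between libraries. HISAT2, featureCounts and Trim Galore and the build mm10 are named, per the submitters' processing notes. No version, annotation or strand setting of these tools is given in the sources used here. Spreadsheet software had turned 27 gene names into dates.

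Genes passing filterByExpr (14205, holding 99.92% of counts) were fitted with edgeR 4.0.16 in R 4.3.3, with TMM factors, robust quasi-likelihood dispersion, all 24 libraries and 1 mean per group (18 residual degrees of freedom, common dispersion 0.0454, a biological coefficient of variation of 0.213). The 12 two-sided contrasts were aged minus young, population pairs within an age, and differences of age effects. P-values were adjusted over all tested genes by the Benjamini-Hochberg method, with a threshold of 0.05. The fit was tested on simulated data. Arm levels used log2 CPM with a prior count of 2. Exon lengths and positions came from GENCODE and RefSeq annotations of that build.

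Values in every library are given for members past the threshold in an age contrast or a difference of age effects, and values or ranges for other members of high level. Population contrasts name up to 3 members each way of smallest p, and other pathway lists up to 2 genes each way. Some genes these rules take are not described. Members, lists, roles and rules were chosen with earlier results of these data known. Alternatives were DESeq2 1.42.0, limma-voom (limma 3.58.1), other size factors, no count filter, only the compared groups, no ribosomal RNA or hemoglobin genes, a replicate block, and libraries left out. Same-numbered libraries correlated between -0.04 and 0.13 in their deviations from group means, and in no contrast were all above 0.1. The main fit therefore did not pair libraries by number, but low correlations cannot show that populations came from different mice. Those correlations cover all tested genes, and the members can differ from them. By the type I arm level, aged libraries 1 and 2 lay above libraries 3 and 4 in LT-HSC and in ST-HSC, but not in MPP. Library 3 was highest in young ST-HSC and young MPP, but not in young LT-HSC. With 4 mice per age, populations of one age may share mice. Comparisons between them and differences of age effects took the libraries as independent.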

Additional observations from a re-analysis of the deposited data

Results flagged for a closer look

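Among the 22 members past the threshold in an age comparison or a difference of age effects, 132 sets of 4 libraries were examined for 1 library standing far from the other 3, and 11 were found. Chance gives about 1 in 20 sets. In aged MPP, library 1 was high for Oas2 (50.3 CPM) and Oasl2 (60.0 CPM), library 2 was high for Irf1 (332 CPM) and library 3 was low for Stat2 (47.6 CPM). In aged LT-HSC, library 1 was high for Oas1a (39.2 CPM), library 3 high for Sp100 (73.3 CPM) and library 4 low for Sp140 (19.9 CPM). Psmb9 was high in aged ST-HSC library 2 (124 CPM). In young cells, Stat2 was low in LT-HSC library 2 (62.6 CPM), and ST-HSC library 3 was low for Sp140 (9.66 CPM) and B2m (1008 CPM).

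The change with age differed between populations by a test of the difference for 9 results. Between LT-HSC and MPP the log2 difference was 1.04 for Ifih1, 1.63 for Rtp4, 0.89 for Oasl2, 0.71 for Trim30a, -0.74 for Psmb8, -0.71 for Psmb9 and -2.53 for Mx1. Between LT-HSC and ST-HSC it was 0.63 for Ifih1 and 1.90 for Rtp4. Among these, Ifih1, Psmb8 and Psmb9 between LT-HSC and MPP kept their calls in every alternative run.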

How the results depend on the processing

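No called member changed sign in any alternative, and of the recomputed single-member calls 520 held and 164 were lost. Of the recomputed counts of changed members, 191 stayed within 1.5 times of the main count and 37 did not. DESeq2 gave 8 in ST-HSC between ages, 11 for the LT-HSC minus MPP age difference and 1 for ST-HSC minus MPP. Without the 3 libraries set apart the counts were 2 in ST-HSC between ages, 10 for aged ST-HSC against MPP and 1 for the LT-HSC minus ST-HSC age difference. Without a count filter they were 1 and 4 for the LT-HSC minus ST-HSC and LT-HSC minus MPP age differences. Fits to only the groups compared gave 6 in MPP between ages and 8 for young LT-HSC against ST-HSC. A replicate block gave 9, 5 and 16 between ages in LT-HSC, ST-HSC and MPP. Between ages the block tied aged and young libraries of the same number, which are different mice, so those counts do not check pairing by mouse. For population pairs and age differences it tied same-numbered libraries within an age, and gave 1 for the ST-HSC minus MPP age difference. The block moved no other count past 1.5 times. It ended the calls of Tap2 (aged ST-HSC against MPP, adjusted p = 0.0745), Trim30a (young ST-HSC against MPP, 0.0745) and Trim30a (LT-HSC minus MPP age difference, 0.0869).

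With 1 library left out, counts between ages ran from 5 to 6 in LT-HSC, 2 to 7 in ST-HSC and 6 to 19 in MPP. Aged LT-HSC against MPP ran from 23 to 30, against ST-HSC 8 to 11, and aged ST-HSC against MPP 12 to 19. The young counts ran from 8 to 11, 2 to 4 and 10 to 13, and age differences from 3 to 10 (LT-HSC minus MPP), 0 to 3 (LT-HSC minus ST-HSC) and 0 to 1 (ST-HSC minus MPP). The cause of these moves was not tested. All 96 recomputed medians of the type I and antigen processing arms moved by less than the replicate SD of the arm level. That limit is loose and does not show stability, since the type I SDs in MPP (0.20 aged, 0.18 young) are near the size of the median change itself. With 1 library left out, the type I median ran from -0.28 to -0.10 in MPP and from -0.29 to -0.14 in ST-HSC. The antigen processing median in MPP ran from 0.23 to 0.39. Members under 5 CPM are limited by depth.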

Other observations

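Genes near the 51 in the pathway showed further changes with age, by the same edgeR quasi-likelihood fit and Benjamini-Hochberg adjustment. Ifi47, an interferon-gamma type GTPase that is not among the 4 members of that class, averaged 128 ± 26.2 CPM in aged LT-HSC, where the young LT-HSC mean was 86.7 ± 3.01 CPM (log2 change 0.56 ± 0.12, adjusted p = 0.00118). In ST-HSC it averaged 110 ± 8.28 CPM in aged cells, where the young mean was 70.2 ± 7.22 CPM (0.64 ± 0.12, adjusted p = 0.00133). Mb21d1, the DNA sensor cGAS, averaged 9.09 ± 1.01 CPM in aged LT-HSC, below the young LT-HSC mean of 20.4 ± 4.06 CPM (-1.17 ± 0.18, adjusted p = 3.7e-05). Irf5, a transcription factor downstream of Toll-like receptors, averaged 9.48 ± 1.44 CPM in aged LT-HSC, below the young LT-HSC mean of 18.8 ± 3.46 CPM (-0.99 ± 0.20, adjusted p = 0.000799). Tbk1, the kinase that activates Irf3, rose slightly in aged LT-HSC (0.23 ± 0.08, adjusted p = 0.0381). Slfn9, of the Schlafen family, averaged 31.5 ± 8.43 CPM in aged LT-HSC, below the young LT-HSC mean of 64.6 ± 13.8 CPM (-1.04 ± 0.23, adjusted p = 0.00229).

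In peptide loading, Calr, the chaperone of new class I heavy chains, averaged 872 ± 144 CPM in aged MPP and 603 ± 129 CPM in young MPP (0.53 ± 0.12, adjusted p = 0.00431), with libraries that overlap. In ST-HSC it averaged 484 ± 48.6 CPM in aged cells and 358 ± 7.70 CPM in young cells (0.43 ± 0.12, adjusted p = 0.029), without overlap. Psme1, a subunit of the interferon-inducible proteasome activator, fell by 0.27 on the log2 scale in aged LT-HSC (adjusted p = 0.0347), with overlap.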
